A study of Mus musculus with 6 samples.

Results

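The genes described here are 37 nuclear genes for proteins of the mitochondrial respiratory chain, out of 41388 genes counted. They were chosen by symbol: 17 for complex I, 4 for complex II, 6 for complex III, 9 for complex IV and Cycs for cytochrome c. All 37 symbols were found once in the files, and all 37 passed the filter on low counts. RNA came from EGFP-positive cells sorted from dorsal root ganglia (DRG) of 18.5 dpc embryos (dpc, days after coitum) of the mouse strain C57BL/6, spinal levels T11 to S1, where sensory neurons that supply the trunk, pelvis and hindlimb have their cell bodies. The female group had 3 libraries, A from 60 ganglia of 3 embryos, B from 20 ganglia of 1 embryo and C from 20 ganglia of 1 embryo. The male group also had 3 libraries, A from 60 ganglia of 3 embryos, C from 40 ganglia of 2 embryos and D from 40 ganglia of 2 embryos. All 6 carried the same Ret-EGFP reporter, which the genotype label gives as Tg(Ret-EGFP)SJ and the series description as EGFP knocked into the Ret locus in heterozygotes, and the labels do not settle which of these it was. No group without the reporter was used, and every sorted cell type that expresses Ret contributes to a library.

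The respiratory chain lies in the inner mitochondrial membrane. Complex I (NADH dehydrogenase) and complex II (succinate dehydrogenase) pass electrons to ubiquinone, complex III (cytochrome bc1) passes them on to the small soluble carrier cytochrome c, and complex IV (cytochrome c oxidase) gives them to oxygen. Complexes I, III and IV contain subunits from both genomes, whereas complex II is encoded in the nucleus alone. Peripheral sensory neurons with long axons rely on oxidative phosphorylation for much of their ATP.

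The promoters of these genes are known for binding sites of NRF1 and of the ETS family factor GABP, also called NRF2, which drive many nuclear genes of the chain. RefSeq promoter windows (GRCm38.p6, 250 bases before to 50 after the annotated start) matched 27 of the 37 members, with 28 windows because Ndufa5 had 2. The NRF1 letters GCGCANGCG, on either strand, were in 10 of the 28 windows (35.7%), against 6.25% of all 32851 windows. The GABP letters CCGGAAG were in 7 (25%), against 8.86% of all windows, and the YY1 letters GATGGCG in 5 (17.9%), against 3.49%. The CREB letters TGACGTCA were in 1 window (3.57%), against 1.79%. The 250 bases before the start are shown for 4 members, 5′ to 3′ on the strand of the gene, with each match in capitals. Cox5a is shown because its distance from the median member of its complex had the widest range over libraries. Cycs alone held the CREB letters, Cox6a1 was the member with the most NRF1 matches among those shown, and Sdhd held both NRF1 and GABP letters. The windows lie at chr9:57520982-57521231 on the plus strand for Cox5a, chr6:50566570-50566819 on the minus strand for Cycs, chr5:115348959-115349208 on the minus strand for Cox6a1 and chr9:50603850-50604099 on the minus strand for Sdhd.
Cox5a: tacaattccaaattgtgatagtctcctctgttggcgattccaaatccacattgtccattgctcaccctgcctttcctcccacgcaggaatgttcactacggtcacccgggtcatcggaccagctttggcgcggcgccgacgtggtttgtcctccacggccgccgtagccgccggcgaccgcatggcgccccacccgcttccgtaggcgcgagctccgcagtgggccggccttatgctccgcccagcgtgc
Cycs: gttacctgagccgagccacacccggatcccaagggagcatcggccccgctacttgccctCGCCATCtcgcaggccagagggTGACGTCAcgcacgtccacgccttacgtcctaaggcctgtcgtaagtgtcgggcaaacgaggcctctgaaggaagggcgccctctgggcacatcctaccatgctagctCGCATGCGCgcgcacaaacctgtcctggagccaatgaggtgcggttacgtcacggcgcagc
Cox6a1: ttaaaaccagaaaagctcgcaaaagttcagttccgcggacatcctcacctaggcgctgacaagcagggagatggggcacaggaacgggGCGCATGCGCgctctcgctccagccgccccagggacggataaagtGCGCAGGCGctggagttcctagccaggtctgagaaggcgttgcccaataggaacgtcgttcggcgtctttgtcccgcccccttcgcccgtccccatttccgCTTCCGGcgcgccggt
Sdhd: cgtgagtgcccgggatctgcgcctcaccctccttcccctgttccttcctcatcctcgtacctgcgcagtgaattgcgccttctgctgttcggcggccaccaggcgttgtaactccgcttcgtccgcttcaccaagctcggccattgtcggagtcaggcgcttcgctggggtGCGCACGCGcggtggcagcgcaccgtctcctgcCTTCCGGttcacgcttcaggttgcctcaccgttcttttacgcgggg
The Cox5a window held none of the 4 motifs, which says only that these letters are not in it. The Cox6a1 window held 3 NRF1 matches, of which a pair overlap on opposite strands, and 1 GABP match. A YY1 match of Cox6a1 lies after the start and is not shown. Any of the 4 motifs was present in 17 of the 28 member windows (60.7%), against 17.55% of all windows. A match is a run of letters and does not show that a factor binds there.

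Total counts per library ran from 17861500 to 29330101, so that 3 counts corresponded to 0.102 to 0.168 CPM (counts scaled to the library total). Markers of sensory neurons were all present, led by Stmn2 at 2784 ± 415 RPKM (CPM per kilobase of gene length, scaled by TMM normalization factors, SD, n = 6), and markers of satellite glia and Schwann cells were present too, led by Fabp7. Male A stood apart, with 1129 RPKM summed over 8 glial markers against 638 to 754 RPKM in the other 5 libraries, 440 against 167 to 224 RPKM over 7 fibroblast markers, and 55.1 against 14.9 to 23.0 RPKM over 6 cycling markers. The library labelled male C held the Y-linked genes but also 58.9 CPM of Xist, the RNA of the inactive X chromosome. The other male libraries had 0.418 CPM (A) and 0.576 CPM (D), and the females 112 to 197 CPM. Female B and C were entered as later records with labels of another form, and are called record set 2 here. Female A and the 3 males are record set 1.

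The 37 members were among the most abundant mRNAs. Their median level was 154.9 RPKM, against 4.08 RPKM for all 14958 genes tested, and 32 of the 37 lay in the top 10% of genes by level. Together they took 0.77% of counts in female A, 0.838% in female B, 0.831% in female C, 1.01% in male A, 0.925% in male C and 0.847% in male D. With all members and per deposited length, the complexes stood at like levels. The median member had 155.2 ± 16.8 RPKM in complex I, 160.5 ± 20.2 RPKM in complex II, 157.0 ± 11.9 RPKM in complex III and 187.9 ± 34.6 RPKM in complex IV (SD, n = 6). No neighbours in that order differed by more than the larger of their SDs. Without Cox5a, which was low in females B and C, the median member of complex IV had 236.6 ± 29.1 RPKM. Without Cyc1 that of complex III had 164.6 ± 14.7 RPKM (SD, n = 6), so that complex IV then lay higher by more than either SD. The order of the complexes rests on gene length. The deposited length joins all exons of a gene and is much longer than the main transcript for some members. It is 4522 bases for Ndufb7 against 623 in the principal transcript, and 3567 for Cox6c against 738. Per principal transcript length the medians were 205 RPKM for complex I, 192.1 for complex II, 201.5 for complex III and 275.8 for complex IV. Per longest annotated transcript they were 195.4, 192.1, 192.4 and 189.9 RPKM for complexes I to IV, so that complex IV was the lowest.

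**Figure D1:**
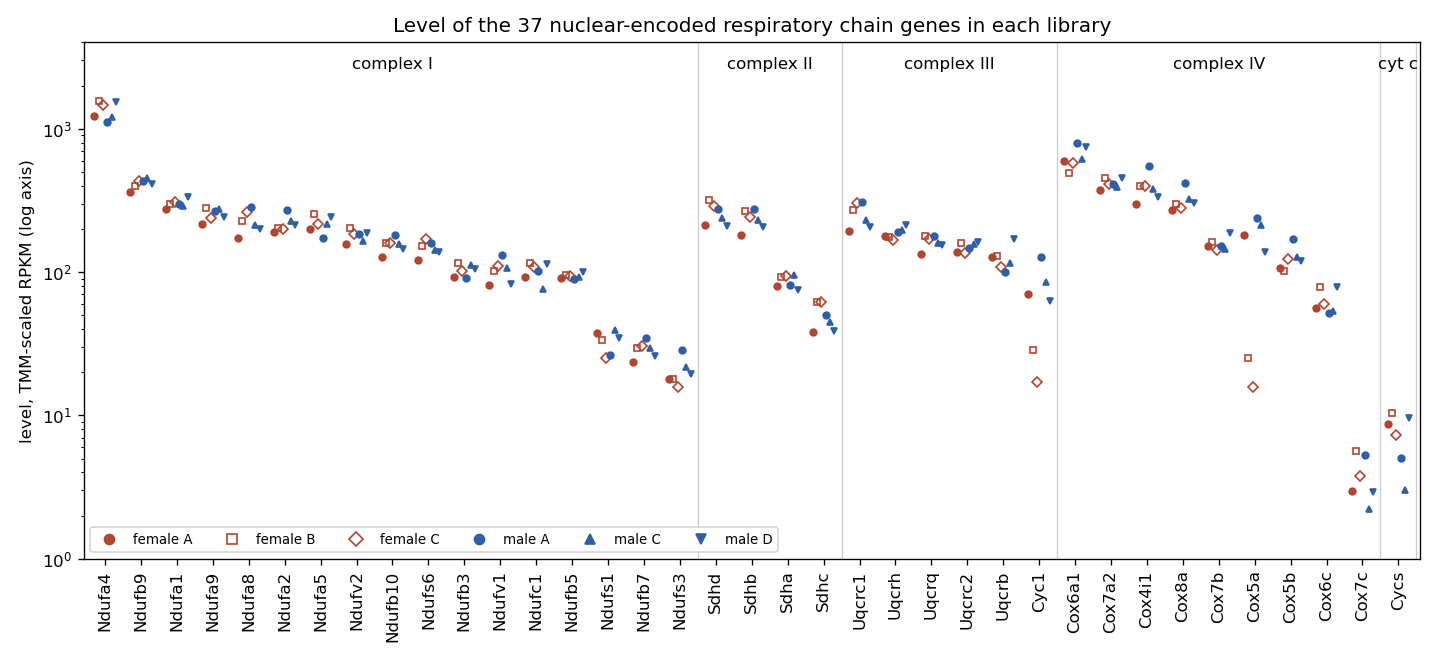
Level of each of the 37 members in each library, as TMM-scaled RPKM on a log axis, grouped by complex and ordered by mean level. Each point is 1 library, females in red (open for B and C) and males in blue. Cox5a and Cyc1 have their 2 lowest points in female B and C, while Cox7c and Cycs lie at or under 10.5 RPKM in all 6 libraries.

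The members of complex I ranged from 20.2 to 1349 RPKM. Ndufa4 (chr6:11900373-11907446, minus strand) was the highest of all 37. It had 1223, 1560 and 1465 RPKM in female A, B and C, and 1106, 1202 and 1538 RPKM in male A, C and D. The sexes overlapped, with a log2 change of 0.14 ± 0.20 (SE) female minus male. Its product was first purified with complex I and is now known as a subunit of complex IV. With Ndufa4 counted there instead, the median member had 150.5 RPKM in complex I and 250.8 RPKM in complex IV. Next in complex I came Ndufb9, an accessory subunit of the membrane arm, at 415 ± 31.9 RPKM, and Ndufa1, an X-linked subunit needed for assembly, at 300.8 ± 19.2 RPKM (SD, n = 6). The core subunits that carry electrons were lower per gene length than Ndufa4, Ndufb9 and Ndufa1, though Ndufv2 lay above the median member of the complex. Ndufv1, which binds NADH and flavin, had 102.4 ± 19.1 RPKM. Ndufv2, an iron-sulphur protein beside it, had 179.5 ± 16.3 RPKM. Ndufs1, the largest subunit with several iron-sulphur clusters, had 32.8 ± 5.79 RPKM over a deposited length of 8086 bases, which is 99.8 RPKM per principal transcript length.

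Ndufs3, a core subunit of the arm in the matrix (chr2:90894634-90904827, minus strand), was the lowest of complex I. It had 17.8, 17.9 and 15.7 RPKM in female A, B and C, and 28.5, 21.7 and 19.6 RPKM in male A, C and D. All 3 females lay below all 3 males, but the difference did not pass the test (log2 change -0.44 ± 0.21, edgeR quasi-likelihood F-test, adjusted p = 0.961). Without male A, the highest library, the log2 change was -0.27, and without male A and male C it was -0.20. Of its 50-base windows, 35.8% occur exactly in another gene, and how such reads were counted is not stated in the labels. The steadiest members of all were in this complex. Ndufb5, an accessory subunit (chr3:32736990-32751566, plus strand), had 91.1, 96.1 and 93.4 RPKM in female A, B and C, and 89.9, 92.0 and 99.5 RPKM in male A, C and D, a coefficient of variation (CV, the SD as a percent of the mean) of 3.81%. Ndufa1 (chrX:37187588-37191163, minus strand) had 277.5, 299.1 and 307.8 RPKM in female A, B and C, and 298.1, 288.4 and 333.8 RPKM in male A, C and D, a CV of 6.39%. The log2 change of this X-linked gene, female minus male, was -0.06 ± 0.18. The other 9 members of complex I, the accessory subunits Ndufa2, Ndufa5, Ndufa8, Ndufa9, Ndufb3, Ndufb7, Ndufb10, Ndufc1 and Ndufs6, had means between 29.0 and 252.3 RPKM.

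Complex II has 4 subunits and all were measured. Sdhd, a membrane anchor (chr9:50596338-50603849, minus strand), was the highest. It had 211.4, 316.2 and 290.1 RPKM in female A, B and C, and 275.9, 236.9 and 211.0 RPKM in male A, C and D. Female B and C were the highest of the 6 libraries, and female A and male D the lowest. Sdhb, the iron-sulphur subunit (chr4:140961203-140979193, plus strand), had 182.4, 268.0 and 243.8 RPKM in females A, B and C, and 275.7, 230.9 and 207.2 RPKM in males A, C and D. Sdha, the flavoprotein that oxidises succinate, had 86.4 ± 8.36 RPKM. Sdhc, the other membrane anchor (chr1:171127165-171150603, minus strand), was the lowest, with 38.0, 61.4 and 61.8 RPKM in females A, B and C, and 50.3, 45.1 and 38.6 RPKM in males A, C and D. Summed over the 4 genes, complex II had 511.8, 738.6 and 689.2 RPKM in females A, B and C, and 683.6, 607.6 and 532.0 RPKM in males A, C and D. Neuron markers moved with that sum. Over 8 markers they summed to 6143, 8592 and 8174 RPKM in females A, B and C, and 6834, 6976 and 6272 RPKM in males A, C and D. Their part in the level of complex II was not tested. In sorted pools, fewer neurons and less of an mRNA per neuron cannot be told apart.

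In complex III, 5 of 6 members had CVs of 7.74% to 19.7%, and the sixth was Cyc1. Uqcrc1, a core protein of the complex (chr9:108936648-108949640, plus strand), was the highest, with 193.9, 269.9 and 301.5 RPKM in females A, B and C, and 307.8, 229.4 and 207.8 RPKM in males A, C and D. Uqcrh, the hinge protein, came next at 186.6 ± 16.8 RPKM, then Uqcrq at 162.7 ± 17.0, Uqcrc2 at 149.9 ± 11.6 and Uqcrb at 125.4 ± 24.7 RPKM (SD, n = 6). Cyc1, the haem subunit that hands electrons to cytochrome c (chr15:76343523-76345934, plus strand), was the lowest. It had 69.9, 28.7 and 17.1 RPKM in females A, B and C, and 126.9, 85.6 and 63.1 RPKM in males A, C and D, with a CV of 60.9%. Female B and C lay below all other libraries.

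In complex IV, Cox6a1 (chr5:115345642-115348981, minus strand), the form of subunit VIa found outside heart and skeletal muscle, was the highest. It had 593.1, 487.7 and 580.2 RPKM in females A, B and C, and 788.6, 610.3 and 743.4 RPKM in males A, C and D. The females lay below the males by a narrow margin, and the difference did not pass the test (log2 change -0.37 ± 0.19, edgeR adjusted p = 0.961). Cox7a2, a small structural subunit, had 416.1 ± 32.5 RPKM, Cox4i1, a regulatory subunit that binds ATP, 392.3 ± 84.9 RPKM and Cox8a, another small subunit, 315.6 RPKM with a CV of 17.4%. Cox7b, Cox5b and Cox6c followed at 156.6 ± 16.3, 124.3 ± 24.0 and 63.1 ± 12.6 RPKM (SD, n = 6).

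A pair of members was far below all others. Cox7c, a small subunit of complex IV (chr13:86044816-86046904, minus strand), had 2.95, 5.63 and 3.81 RPKM in females A, B and C, and 5.27, 2.24 and 2.93 RPKM in males A, C and D. Cycs, cytochrome c itself (chr6:50562563-50566538, minus strand), had 8.66, 10.5 and 7.33 RPKM in females A, B and C, and 5.02, 3.00 and 9.67 RPKM in males A, C and D. The sexes overlapped for both. Of the 50-base windows in the principal transcript, 53.0% for Cox7c and 28.5% for Cycs occur exactly in at least 1 other gene. Cycs shares a stretch of at least 100 bases at 95% identity or more with 53 genes, and whether these are copies of its mRNA was not looked at. Mean levels of the 6 members with over 20% of such windows were 7.97 to 383.7 RPKM per principal transcript length, with a median of 61.7, against 50.4 to 1088 RPKM with a median of 217.2 for the other 31. The labels do not say how reads with several matches were counted, and the part of this in the low values was not tested. The other members with over 20% of such windows spanned a wide range of levels per principal transcript length. They were Uqcrb (43.2%, 205.4 RPKM), Ndufs3 (35.8%, 42.1 RPKM), Cox5b (25.9%, 81.4 RPKM) and Ndufb9 (23.4%, 383.7 RPKM).

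**Figure D2:**
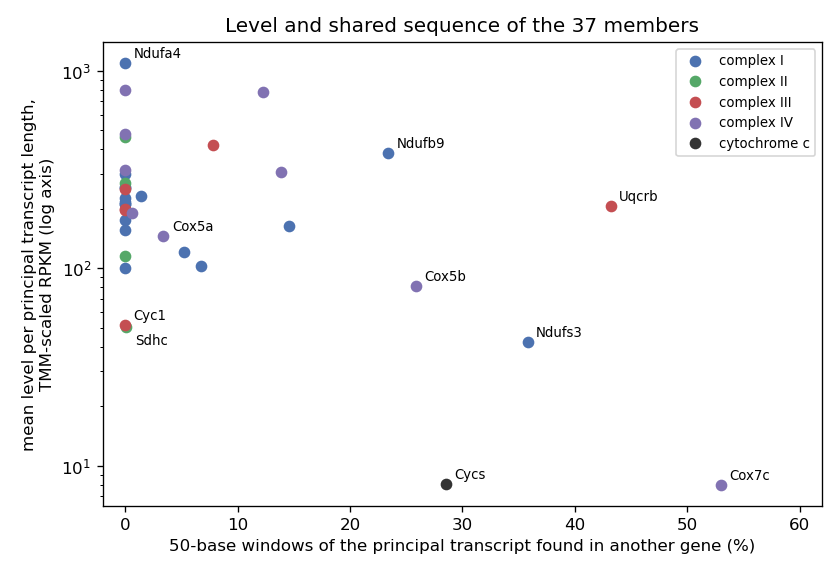
Mean level of each member over 6 libraries, as TMM-scaled RPKM per principal transcript length on a log axis, against the percent of its 50-base windows found exactly in another gene. Each point is 1 gene, coloured by complex. Cox7c and Cycs are the lowest and have 53.0% and 28.5% of windows in other genes, while Cyc1 has 0% and Cox5a 3.4%.

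Cox5a, a nuclear subunit of complex IV that contacts Cox4i1 (chr9:57521232-57532424, plus strand), varied more than any other member. It had 181.6, 25.0 and 15.9 RPKM in females A, B and C, from 2743, 312 and 219 counts, and 239.8, 213.1 and 137.8 RPKM in males A, C and D, from 3164, 4641 and 1982 counts. Female B and C were low and female A lay within the range of the males. The CV was 70.4%, against 3.81% to 22.5% for the 33 members other than Cox5a, Cyc1, Cycs and Cox7c. Set against the median member of complex IV in the same library on the log2(RPKM + 0.1) scale, Cox5a stood at 0.00, -2.70 and -3.16 in the libraries female A, B and C, and at 0.00, 0.00 and -0.44 in males A, C and D. A value of 0 means that Cox5a was itself the median member. Cyc1 stood at -0.96, -2.54 and -3.13 from the median of complex III in the libraries female A, B and C, and at -0.35, -0.88 and -1.40 in males A, C and D. The departures spanned 3.16 log2 units over libraries for Cox5a and 2.78 for Cyc1. For the other 34 members they spanned 0.12 to 1.68, with a median of 0.43.

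**Figure D3:**
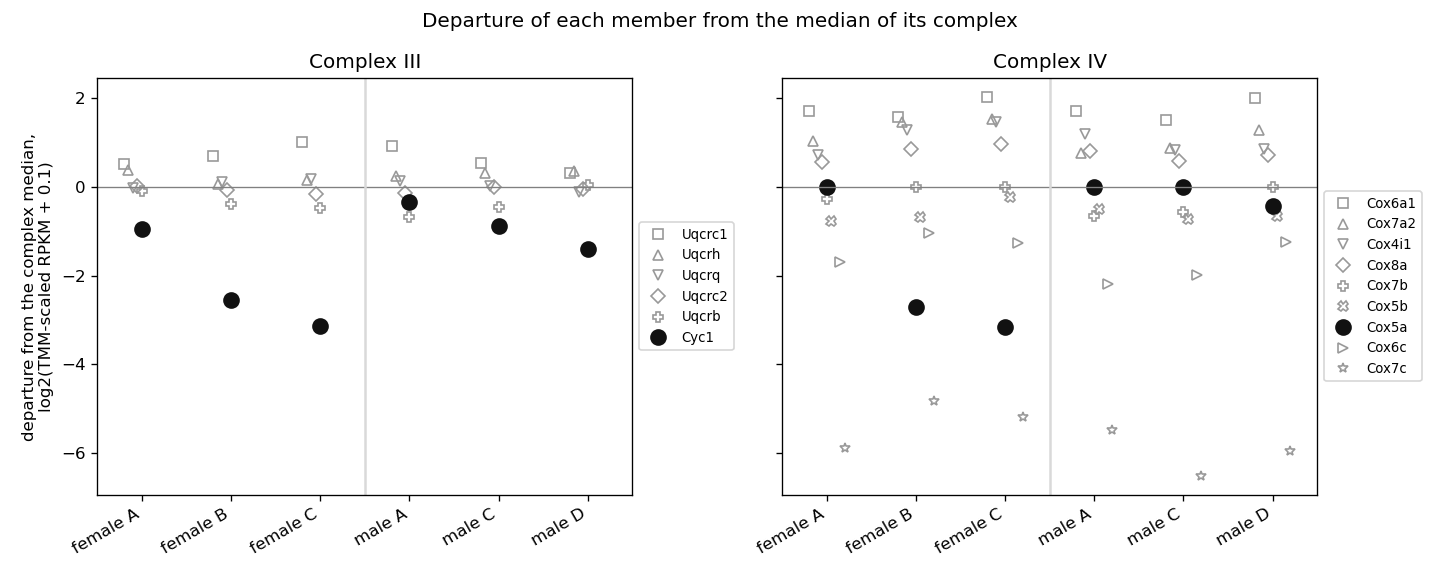
Departure of each member of complexes III and IV from the median member of its complex in the same library, as a difference of log2(TMM-scaled RPKM + 0.1). Each point is 1 gene in 1 library, with Cyc1 and Cox5a as filled black circles. Both have their lowest values in female B and C, Cox5a at -2.70 and -3.16 and Cyc1 at -2.54 and -3.13, and Cyc1 lies below 0 in every library.

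The genes beside Cox5a on the chromosome did not have its gap between female B and C and the rest. Scamp5, on one side, had 74.1, 73.5 and 69.3 CPM in female A, B and C, and 74.1, 79.4 and 67.0 CPM in male A, C and D. Fam219b, on the other side, had 46.7, 51.4 and 63.5 CPM in female A, B and C, and 41.9, 47.4 and 43.6 CPM in male A, C and D. The antisense gene Gm26631 shares 267 bases of exon with Cox5a and had at most 3.24 CPM in any library. Beside Cyc1, Gpaa1 on one side had 45.9, 46.8 and 51.3 CPM in female A, B and C, and 74.5, 53.8 and 43.0 CPM in male A, C and D. On the other side, Sharpin had 24.6, 28.6 and 31.6 CPM in female A, B and C, and 43.8, 27.3 and 24.7 CPM in male A, C and D. Maf1, the next gene after Sharpin and a repressor of RNA polymerase III, did have its lowest values in female B and C, with 46.1, 28.6 and 12.5 CPM in female A, B and C, and 104 CPM in male A, 44.0 CPM in male C and 52.6 CPM in male D.

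Female and male libraries were compared over all 14958 genes with edgeR. No member passed an adjusted p of 0.05 (0 of 37, against 0.0267% of all genes, which are 4 Y-linked genes). At an unadjusted p under 0.05 there was 1 member, Cyc1 (2.7% of members, against 4.42% of all genes). Its log2 change was -1.25 ± 0.48 (SE), with means of 38.6 ± 27.8 RPKM in females and 91.9 ± 32.4 RPKM in males (SD, n = 3 each) and an adjusted p = 0.961 by edgeR. DESeq2 and limma voom also called 0 members. Cox5a averaged 74.2 ± 93.1 RPKM in females and 196.9 ± 52.9 RPKM in males, with a log2 change of -1.41 ± 0.77 (edgeR adjusted p = 0.961). Both differences rest on female B and C. Within record set 1, female A against the 3 males, the log2 change was -0.12 for Cox5a and -0.39 for Cyc1. Without female A it was -3.27 for Cox5a and -2.01 for Cyc1, without male A -0.95 for Cyc1, and without female B or C it was -0.99 or -0.93 for Cox5a. None of these passed an adjusted p of 0.05.

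The remaining 35 members had log2 changes of -0.44 to 0.58 between the sexes. Over the 37, 24 were lower and 13 higher in females, with a median of -0.06, beside 49.5% higher and a median of -0.0036 over all genes. With plain library totals, which put the median of all genes at -0.12, 31 were lower and 6 higher. By complex, 11 of 17 members of complex I, 1 of 4 of complex II, 5 of 6 of complex III and 7 of 9 of complex IV were lower in females. In 5 members all 3 females lay below all 3 males (13.5%, against 3.88% of all genes). They were Ndufa2, Ndufs3, Uqcrh, Cox6a1 and Cox8a. In none did all females lie above all males, against 4.18% of all genes. Cox8a, for example, had 269.3, 296.6 and 279.7 RPKM in females A, B and C, and 421.4, 321.5 and 305.4 RPKM in males A, C and D, with a log2 change of -0.31 ± 0.20 (edgeR adjusted p = 0.961). Summed over its 9 members, complex IV had 2031, 2007 and 2013 RPKM in females A, B and C, and 2783, 2249 and 2364 RPKM in males A, C and D. Without Cox5a the sums were 1850, 1982 and 1998 RPKM in the females and 2543, 2036 and 2226 RPKM in the males, so the groups still did not overlap but lay close. Those sums leave out Ndufa4, counted with complex I, at 1560 RPKM in female B and 1202 RPKM in male C. With Ndufa4 added to either sum, male C falls below females B and C, so that the groups overlap. Male A was the highest library in the sums without Ndufa4, as in the glial, fibroblast and cycling markers. The part of those cells in the sums was not tested. The largest positive change was that of Cycs (0.58 ± 0.39, edgeR adjusted p = 0.961).

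**Figure D4:**
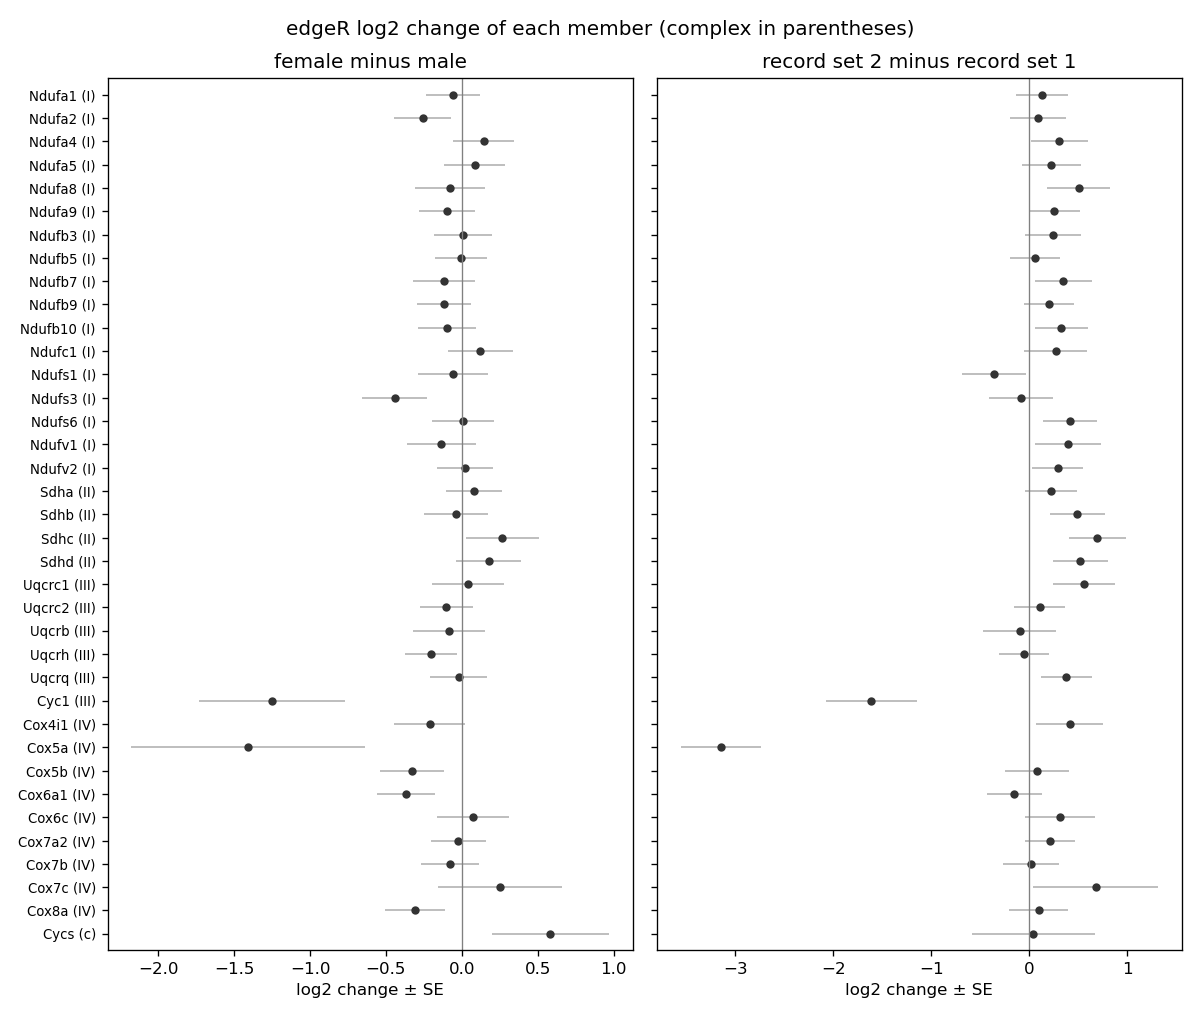
edgeR log2 change of each of the 37 members, female minus male on the left and record set 2 minus record set 1 on the right, with bars of 1 SE. Each row is 1 gene with its complex in parentheses. Cyc1 and Cox5a stand apart below 0 in both comparisons, and 30 of the 37 genes lie above 0 on the right.

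Record set 2 (females B and C) was compared with record set 1 with sex as a term. As all males are in record set 1, this contrast comes from the females alone, and record set, the 1-embryo pools and any preparation of the 2 libraries cannot be told apart. By edgeR no gene passed an adjusted p of 0.05 (0 of 37 members, 0% of all genes), and 3 members (8.1%) had an unadjusted p under 0.05, against 3.23% of all genes. There 1 was higher and 2 were lower, against 1.39% and 1.84% of all genes. They were Cox5a (log2 change -3.15 ± 0.41, adjusted p = 0.677), Cyc1 (-1.61 ± 0.46, adjusted p = 1.00) and Sdhc (0.70 ± 0.29, adjusted p = 1.00). Sdhd was next (0.52 ± 0.28, adjusted p = 1.00). The mean of Cox5a was 20.5 RPKM in record set 2 and 193.1 RPKM in record set 1, a ratio of 9.43. Unlike edgeR with the low-count filter, DESeq2 called Cox5a (adjusted p = 5.49e-07, 13 genes in all), and so did edgeR without that filter (adjusted p = 0.000288, 3 genes in all). Among females only, female B and C against the single library female A, the spread comes from B and C alone, with 1 residual degree of freedom, and female A is assumed to vary like them. That edgeR fit called 136 genes (0.861%), Cox5a (adjusted p = 0.00134) and Cyc1 (adjusted p = 0.0244) among them. Over the alternatives run the adjusted p of Cox5a lay between 5.49e-07 and 1.00, with log2 changes of -3.51 to -2.86.

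Few genes had a gap like that of Cox5a. Of 8883 genes with a mean of at least 10 CPM, the lowest library of record set 1 was at least 5 times the highest of record set 2 in 2 genes, Gm1673 with a ratio of 5.69 and Cox5a with 5.5. It was at least 2 times as high in 18 genes. Cyc1 ranked 11th with 2.20. Others near the top, named after their values were seen, were Saraf (2.88), Ddost (2.65) and Mfsd1 (2.65), which encode a regulator of store-operated calcium entry, a subunit of the oligosaccharyl transferase and a lysosomal transporter. In 29 genes the lowest library of record set 2 was at least 2 times the highest of record set 1, and none of them was a member.

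Apart from Cox5a and Cyc1, most members had log2 changes above 0 between record sets, none of which passed an adjusted p of 0.05. In the fit with sex as a term 30 of the 37 had a log2 change above 0, with a median of 0.22, beside 49.9% of all genes and a median of -0.0011. With plain library totals, which put the median of all genes at -0.10, 24 of the 37 were above 0. That contrast turns on female A. It was the lowest library for 17 of the 37 members (45.9%), against 12.4% of all genes tested, and the highest for 0. Its median member had 137.7 RPKM, against 160.6 and 160.8 RPKM in females B and C, and 173.7, 156.7 and 162.1 RPKM in males A, C and D. Female A against the 3 males gave 35 of 37 members below 0 and a median of -0.23, beside -0.02 for all genes, and without female A 19 of the 37 were higher in females. Male A was the highest library for 14 of the 37 (37.8%), against 31.1% of all genes. All of record set 2 lay above all of record set 1 for Sdhc and Sdhd alone (5.4%, against 11.3% of all genes), and below for Uqcrh, Cyc1, Cox5a and Cox6a1 (10.8%, against 10.3%).

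The mitochondrial genome encodes some of the core subunits of complexes I, III and IV, and 7 of its 13 protein genes passed the filter. Their RNA moved apart from that of the nuclear members. The 37 nuclear members summed to 6875, 7945 and 7732 RPKM in females A, B and C, and 8381, 7614 and 8012 RPKM in males A, C and D, a span of 1.22-fold. The 7 mitochondrial genes summed to 15414, 13733 and 15657 RPKM in females A, B and C, and 6680, 8722 and 19660 RPKM in males A, C and D, a span of 2.94-fold. The mitochondrial sum was thus 2.24, 1.73 and 2.03 times the nuclear sum in females A, B and C, and 0.797, 1.15 and 2.45 times in males A, C and D. The males held both the lowest ratios and the highest, around those of the females. By sex the ratio averaged 2.00 ± 0.26 in females and 1.47 ± 0.87 in males (SD, n = 3 each).

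**Figure D5:**
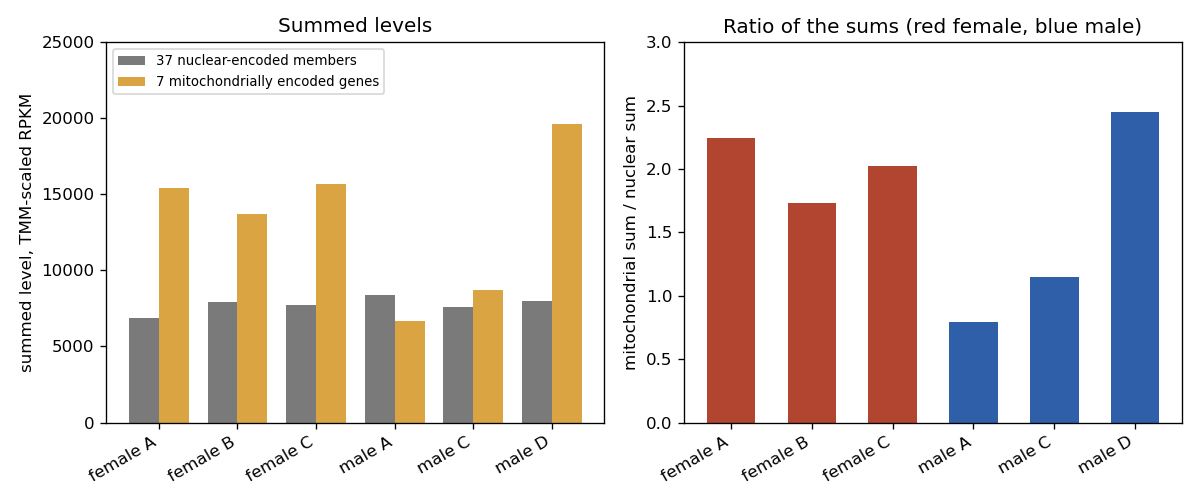
Left, summed TMM-scaled RPKM of the 37 nuclear members (grey) and of 7 mitochondrially encoded genes (gold) in each library. Right, the mitochondrial sum divided by the nuclear sum, females in red and males in blue. The nuclear sums lie between 6875 and 8381 RPKM, while male A and male C have low mitochondrial sums and male D the highest.

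Within complex IV, mt-Co1, the catalytic subunit, had 2534, 2804 and 2687 RPKM in females A, B and C, and 941.2, 1663 and 2371 RPKM in males A, C and D. The females lay above the males (log2 change 0.69 ± 0.30, edgeR adjusted p = 0.961). This is the opposite order to the summed nuclear members of the complex without Ndufa4, and with Ndufa4 added those sums overlap between the sexes. Cytochrome b of complex III (mt-Cytb) had 5838, 4881 and 5818 RPKM in females A, B and C, and 2704, 3722 and 7516 RPKM in males A, C and D. For complex I, mt-Nd1 averaged 4582 ± 300.4 RPKM in females and 3466 ± 2387 RPKM in males, mt-Nd2 653.7 ± 105.8 in females and 515.2 ± 487.0 in males, mt-Nd4 543.8 ± 115.7 in females and 636.1 ± 393.3 in males, mt-Nd5 537.4 ± 117.8 in females and 442.9 ± 207.6 in males, and mt-Nd6 429.9 ± 60.8 in females and 320.9 ± 375.3 in males RPKM (SD, n = 3 each). The other 6, mt-Co2, mt-Co3, mt-Atp6, mt-Atp8, mt-Nd3 and mt-Nd4l, had 0 to 2 counts in every library. Of the windows of mt-Co2, 100% occur in other genes, and 98.0% of those of mt-Nd3. The share for mt-Atp8 is 0%, but only annotated transcripts were searched, so that a copy outside them would be missed. The share is 51.1% for mt-Co1 and 62.2% for mt-Nd4, which had many counts. What part the counting of such reads has in these values was not tested.

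The rest of the chain was read from lists of known genes. The list of other nuclear subunits of complexes I to IV had 24 tested genes, of which 20 were lower in females, with a median log2 change of -0.17. None passed the test at an adjusted p of 0.05 or at an unadjusted p of 0.05. Without male A the median was -0.07. Cox6b1, a subunit at the contact of the complex IV dimer, was the highest at 786.1 ± 14.9 RPKM in females and 925.9 ± 34.2 RPKM in males, followed by Ndufa6 at 332.3 ± 16.7 and 367.6 ± 10.8 RPKM. Those with the smallest p were Ndufa12 (log2 change -0.37 ± 0.18, edgeR adjusted p = 0.961) and Ndufa13 (-0.33 ± 0.19, adjusted p = 0.961). ATP synthase, which uses the proton gradient that the chain builds, had 15 tested genes, 9 of them lower in females, with a median of -0.14 and none at an unadjusted p under 0.05. By these counts its highest members were Atpif1, an inhibitor of the enzyme, and Atp5a1. Atpif1 had 342.2 ± 2.16 RPKM in females and 376.4 ± 65.3 RPKM in males, and Atp5a1 334.4 ± 21.5 and 383.6 ± 40.2 RPKM. Of their 50-base windows, 0.8% and 3.3% occur exactly in another gene. The share is 84.8% for Atp5l (242 counts over all libraries), 87.4% for Atp5g2 (55 counts) and 30.1% for Atp5f1 (67667 counts). What part the counting of such reads has in this order was not tested. The catalytic subunit Atp5b (log2 change -0.38 ± 0.20, edgeR adjusted p = 0.961) and Atp5d (-0.41 ± 0.28, adjusted p = 0.961) had the smallest p.

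Most isoforms that replace a member in other tissues were low. Cox4i2 had 4.13 ± 2.41 RPKM in females and 6.13 ± 1.48 RPKM in males, beside 363.6 ± 56.7 and 421.0 ± 111 RPKM of Cox4i1. The muscle form Cox7a1 had 3.27 ± 0.835 and 3.63 ± 0.721 RPKM. The muscle form Cox6a2 had 0.704 ± 0.34 and 0.755 ± 0.62 RPKM and did not pass the filter. The testis forms Cox6b2 and Cox7b2 had 3.92 ± 0.50 and 1.73 ± 0.59 RPKM in females, and 4.27 ± 0.16 and 1.69 ± 1.00 RPKM in males. Cox8b, Cox8c and the testis cytochrome c Cyct had 0 to 3 counts in every library. Cox7a2l joins complexes III and IV into supercomplexes in mouse strains with an intact protein. Its RNA was well expressed, at 88.2 ± 16.4 RPKM in females and 89.0 ± 13.9 RPKM in males. Counts per gene do not show whether the C57BL/6 mice used here make the intact protein. Ndufa4l2, a form known to be induced by low oxygen, had 0.476, 0.346 and 0.731 RPKM in females A, B and C, and 4.69, 0.396 and 0.699 RPKM in males A, C and D. Male A was the one high library, as it was for fibroblast, glial and cycling markers, and their part in it was not tested. None of the 6 tested isoforms differed at an unadjusted p under 0.05.

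Assembly factors were much lower than the subunits they serve, with a median of 13.0 RPKM over 29 tested genes. Between the sexes 3 were higher in females at an unadjusted p under 0.05 and 0 lower (against 2.9% and 1.52% of all genes), and none passed the adjusted p. Timmdc1, an assembly factor of complex I, had 17.6, 39.1 and 33.2 RPKM in females A, B and C, and 12.8, 12.7 and 18.0 RPKM in males A, C and D (log2 change 1.05 ± 0.31, edgeR adjusted p = 0.961). Female B and C were high for this gene and female A lay within the males. Cox17, a copper chaperone of complex IV, averaged 2.30 ± 0.42 RPKM in females and 1.42 ± 0.09 RPKM in males (log2 change 0.69 ± 0.25, edgeR adjusted p = 0.961). The third was Sdhaf3, named after its value was seen. By these counts Coa3 and Uqcc2 were the highest of the list, at 246.4 ± 38.3 and 132.9 ± 22.0 RPKM over all libraries (SD, n = 6). Cox20, with 68.2% of its windows found exactly in another gene, had 24 counts over all libraries.

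The transcriptional regulators of mitochondrial genes were low, with a median of 3.06 RPKM over 14 genes, 7 higher and 7 lower in females and 0 at an unadjusted p under 0.05. Tfb1m and Tfam, which act on the mitochondrial genome, were the highest, at 13.8 ± 0.36 and 7.01 ± 0.92 RPKM in females, and 14.6 ± 2.71 and 8.02 ± 0.75 RPKM in males. Gabpb1, a subunit of GABP, had a log2 change of -0.64 ± 0.32 (edgeR adjusted p = 0.961), and Yy1 one of 0.62 ± 0.33 (adjusted p = 0.961). Glycolysis and the TCA cycle had 17 and 13 tested genes, with median log2 changes of -0.02 and 0.06 between the sexes and 0 at an unadjusted p under 0.05. By these counts Aldoa and Ldha were the highest of glycolysis. They had 697.4 ± 150.9 and 288.7 ± 35.3 RPKM in females, and 691.9 ± 137.3 and 340.7 ± 85.1 RPKM in males. Of their 50-base windows, 13.9% and 17.1% occur exactly in another gene. The share is 82.5% for Gapdh (1256 counts over all libraries), 68.0% for Pgk1 (2305 counts) and 72.2% for Eno1 (51858 counts). What part the counting of such reads has in this order was not tested. Mdh2 and Idh3a led the TCA cycle at 530.7 ± 120.4 and 248.0 ± 56.2 RPKM in females, and 484.8 ± 77.5 and 201.3 ± 20.9 RPKM in males. The smallest p of glycolysis belonged to Aldoc (log2 change -0.36 ± 0.23, edgeR adjusted p = 0.961) and Eno2 (0.31 ± 0.23, adjusted p = 0.963), and of the TCA cycle to Idh3a (0.30 ± 0.21, adjusted p = 0.961) and Suclg2 (-0.50 ± 0.38, adjusted p = 0.966). Between record sets 14 of 17 and 10 of 13 genes of these lists had log2 changes above 0, with medians of 0.43 and 0.22, again with 0 at an adjusted p under 0.05.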

How the data were processed

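RNA from sorted EGFP-positive DRG cells was amplified as full-length cDNA with a SMARTer ultra low input kit, without molecular identifiers, and sequenced on an Illumina instrument, per the labels' protocols. The tools named are Subread, with no version, and featureCounts 1.4.5, with the build GRCm38.p2, per the submitters' processing notes. No source used here gives the settings for strand or for reads with several matches. The authors deposited raw counts per gene for each library, with CPM and RPKM columns that equal the counts divided by library total and gene length, to within 1e-06. Only counts and lengths were used further, and coordinates are those of the files. The labels name separate embryo pools as the replicates.

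Levels are CPM with TMM factors from edgeR 4.0.16 (R 4.3.3) divided by the deposited length in kilobases. Sexes (female minus male) and record sets (2 minus 1, with sex as a term) were each tested by edgeR's quasi-likelihood F-test over 14958 genes kept by filterByExpr, with Benjamini-Hochberg adjustment and a threshold of 0.05. An SE is the log2 change divided by the root of F. The fit for the sexes was also run on simulated counts with a sex effect alone. These held no shift between record sets, so that run says nothing about such a shift. A departure is log2(RPKM + 0.1) of a member minus the median of its complex. Shared sequence was found in GENCODE M21 transcripts as exact windows of 50 bases and with blastn 2.17.0 (at least 95% identity over 100 bases). The floor of 3 counts covers counting error only, whereas the SEs and SDs include variation between libraries. Of the listed genes, Ndufb1 was not matched by symbol and was not used here.

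Named in full were the highest and lowest member of each complex, those with the largest and smallest change against the complex median, the 4 smallest p of each comparison, the 4 highest and 2 lowest CVs, and Cox5a. Of other lists the 2 highest and the 2 smallest p were named, and every isoform and mitochondrial gene. Other names were chosen after their values were seen. The members and lists were chosen with earlier results of these data known.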

Additional observations from a re-analysis of the deposited data

How the results depend on the processing

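Between the sexes 0 members passed an adjusted p of 0.05 under RLE, upper quartile or plain library totals, both other low-count filters, DESeq2 1.42.0, limma voom 3.58.1, record set or number of embryos as a term, record set 1 only, without male A and male C, and without each replicate in turn (0 to 0). With the replicate letter as a block (A and C shared by both sexes, 1 residual degree of freedom) the count was 1, Cox5a, with a log2 change of -2.05 and an adjusted p of 0.0196, and 77 of all genes were called. Over all genes 4 were called between the sexes, 14 without the low-count filter, 13 by DESeq2, 1 by limma voom and 0 without female A, within record set 1 or with record set as a term. The letters showed no sign of pairing the libraries: deviations from the group means correlated at -0.078 for the A libraries and 0.052 for the C libraries. With only A and C shared, these values cannot settle whether the letters mark pairs. Between record sets the count of members was 0 with edgeR and 1, Cox5a, without the low-count filter, with DESeq2 and without the sex term (adjusted p 0.000288, 5.49e-07 and 0.0383). It was 2, with Cyc1, among females only. Over all genes these settings called 3, 13, 3 and 136, against 0. It was 0 to 0 without each replicate in turn, where leaving out female A could not be fitted. Plain library totals, an alternative added after the data were seen, put the median of all genes at -0.12 between the sexes and -0.10 between record sets.

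TPM is another unit that scales every gene, so its medians (434 for complex I, 448.4 for II, 439.2 for III, 529.8 for IV and 20.3 for Cycs) show no dependence on processing. Median levels moved by more than the spread between libraries per longest transcript (195.4 for I, 192.1 for II and 192.4 for III, with 189.9 for IV, which was then the lowest in place of the highest), per principal transcript (205, 192.1, 201.5 and 275.8 for I to IV) and, for complex IV, with Ndufa4 counted there (250.8). The last pair was added after the data were seen. Without male replicate A they were 151.5, 156.9, 155.9 and 177.5 for I to IV and 7.82 for Cycs. The difference in departure, female minus male, was -1.81 for Cox5a and -1.33 for Cyc1, and without each replicate -2.78 to -1.20 and -1.96 to -0.88. The median log2 change of the members between the sexes, -0.06 with 13 higher and 24 lower, was 0.0018 without female A, with 19 higher and 18 lower. Depth limits Cox7c, with 69 to 115 counts per library.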
